A study of Mus musculus with 9 samples.

Results

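The 38 genes described here encode complement proteins, clotting factors and the plasma proteins that restrain them, most of which the liver secretes into blood. They were taken from a fixed list of gene symbols, and for each the brightest probe set, by mean log2 value over 9 arrays, was read. Of the 38, 36 were measured among 18193 genes: 15 of 16 complement genes, 20 of 21 clotting genes, and vitronectin (Vtn), which restrains the membrane attack complex and also acts in clot stability. C3 and Cpb2 were not analysed here. The arrays hold liver RNA of female C57BL/6J mice, 3 given amoxicillin, 3 given tylosin and 3 control mice without antibiotic. Pulsed antibiotic treatment (PAT) was 3 courses (days 10 to 15, then 28 to 31, then 37 to 40 of life), the first before weaning and reaching the pups through the milk of their mother, with amoxicillin at 0.167 mg/ml (25 mg/kg/day) or tylosin at 0.333 mg/ml (50 mg/kg/day) in the drinking water. Every group was later fed high-fat chow, so the controls carry that diet too. The study's design text gives 22 weeks as the age at collection, and the sample labels give 24 weeks. Whole litters shared a treatment and the litter of each array is not given, so litter and treatment cannot be told apart and each p-value measures only the spread between these samples.

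Complement is a cascade of plasma proteases and pore-forming proteins that tags and lyses microbes, entered through antibody, through lectins that bind microbial sugars, or through the alternative pathway. Clotting is a second cascade, in which thrombin finally turns fibrinogen into fibrin, while antithrombin, protein C and plasmin hold it in check. Hepatocytes make nearly all of these proteins, and liver factors such as HNF1, HNF4 and C/EBP, and STAT3 downstream of interleukin 6, are known to act on many of their promoters.

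Promoters are printed for 2 sets of chromosomal neighbours on which the results below turn. C8a and C8b, neighbours on chromosome 4 with 0 protein-coding genes between them, had the widest spread with C6, and the neighbouring fibrinogen genes Fga, Fgb and Fgg on chromosome 3 were among the steadiest. Each sequence is from RefSeq, build GRCm38.p6, and runs 5′ to 3′ on the strand of its gene from 250 bases before to 50 bases after the start. Capitals mark exact matches on either strand to GTTAAT (a half-site of HNF1), TTGCAA (C/EBP) or TTCNNNGAA (STAT3).
C8a, chr4:104876349-104876648, minus strand: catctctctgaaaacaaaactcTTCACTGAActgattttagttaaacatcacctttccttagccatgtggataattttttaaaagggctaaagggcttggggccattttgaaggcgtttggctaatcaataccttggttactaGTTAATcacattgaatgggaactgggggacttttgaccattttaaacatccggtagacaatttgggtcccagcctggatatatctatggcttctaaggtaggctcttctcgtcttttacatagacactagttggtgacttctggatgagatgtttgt
C8b, chr4:104766067-104766366, plus strand: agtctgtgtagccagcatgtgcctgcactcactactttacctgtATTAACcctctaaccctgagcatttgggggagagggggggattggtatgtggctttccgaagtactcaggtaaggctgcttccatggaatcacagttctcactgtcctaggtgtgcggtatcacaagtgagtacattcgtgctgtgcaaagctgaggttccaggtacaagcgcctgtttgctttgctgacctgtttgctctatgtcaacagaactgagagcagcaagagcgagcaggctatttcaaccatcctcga
Fga, chr3:83025903-83026202, plus strand: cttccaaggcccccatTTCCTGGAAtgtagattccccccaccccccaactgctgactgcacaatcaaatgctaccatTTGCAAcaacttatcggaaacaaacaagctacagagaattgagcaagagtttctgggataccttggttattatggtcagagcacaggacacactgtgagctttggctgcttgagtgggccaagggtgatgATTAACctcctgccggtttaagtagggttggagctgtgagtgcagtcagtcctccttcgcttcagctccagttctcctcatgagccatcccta
Fgb, chr3:83049814-83050113, minus strand: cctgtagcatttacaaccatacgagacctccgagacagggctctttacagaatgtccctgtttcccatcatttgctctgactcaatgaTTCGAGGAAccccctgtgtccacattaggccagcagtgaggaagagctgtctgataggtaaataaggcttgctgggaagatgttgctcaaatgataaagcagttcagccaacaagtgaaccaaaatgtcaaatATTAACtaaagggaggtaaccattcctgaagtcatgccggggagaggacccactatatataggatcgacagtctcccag
Fgg, chr3:83007474-83007773, plus strand: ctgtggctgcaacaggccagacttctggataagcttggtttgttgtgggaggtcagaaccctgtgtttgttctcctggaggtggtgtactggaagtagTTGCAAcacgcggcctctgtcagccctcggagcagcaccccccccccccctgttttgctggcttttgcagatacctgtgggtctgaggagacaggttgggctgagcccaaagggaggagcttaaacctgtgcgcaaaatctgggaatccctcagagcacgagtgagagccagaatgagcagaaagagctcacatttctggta
In these windows C8a, C8b, Fga and Fgb held the HNF1 letters, Fga and Fgg the C/EBP letters, and C8a, Fga and Fgb the STAT3 letters, with no match overlapping another. Promoters were matched for 28 of the 36 measured genes. GTTAAT lay in 10 of the 28 (35.7%), against 7.2% of 27025 promoters of the same length, TTGCAA in 4 (14.3%, against 6.25%) and TTCNNNGAA in 7 (25%, against 8.47%). CAAAGTCC, letters of an HNF4 site, lay in 0 of 28, against 1.44% of all promoters. A match is a description of the letters and was not tested for function.

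All 36 genes were above a log2 value of 6 in all 9 arrays, and 26 were above 10, so most were bright on this array. Their values ran from 6.06 (C6 in tylosin replicate 3) to 13.83 (Fgg in the same array). Arrays of one group differed little: the median SD within groups was 0.0999 log2 units for the 36 genes, against 0.145 for all genes. The range over the 9 arrays was under 0.5 for 25 of the 36 (69.4%, against 49.5% of all genes). Complement genes varied more than clotting genes, with a median SD within groups of 0.178 for complement and 0.0799 for clotting. Among bright genes the median SD was 0.0834 for the 26 members above 10, against 0.113 for all 890 genes above 10 in all arrays. Hepatocyte markers summed to 17.21 to 17.26 in the 9 arrays. Amoxicillin replicate 1 and tylosin replicate 2 stood apart in transcripts of the gut wall: 10 of 12 intestinal mucosa markers were higher in both than in any of the other 7 arrays. Their sums ran from 11.27 to 12.03 in amoxicillin arrays, 11.24 to 11.93 in tylosin arrays and 11.22 to 11.53 in control arrays, set mostly by Fabp2, which ran from 10.90 to 11.62 over the arrays. Against control 11 of the 12 markers had a log2 fold change above 0 with either antibiotic, with medians of 0.50 for amoxicillin and 0.55 for tylosin. Amoxicillin replicate 1 and tylosin replicate 2 were also highest in summed stellate cell and smooth muscle markers (11.28 and 11.24). Their excess of 3-prime over 5-prime signal on the control probe sets was the highest too, for Actb (1.57 and 1.73) and Gapdh (0.545 and 0.532). Without these 2 arrays, left out only once their values were known, 0 of the 36 genes were called by limma in any comparison.

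**Figure D1:**
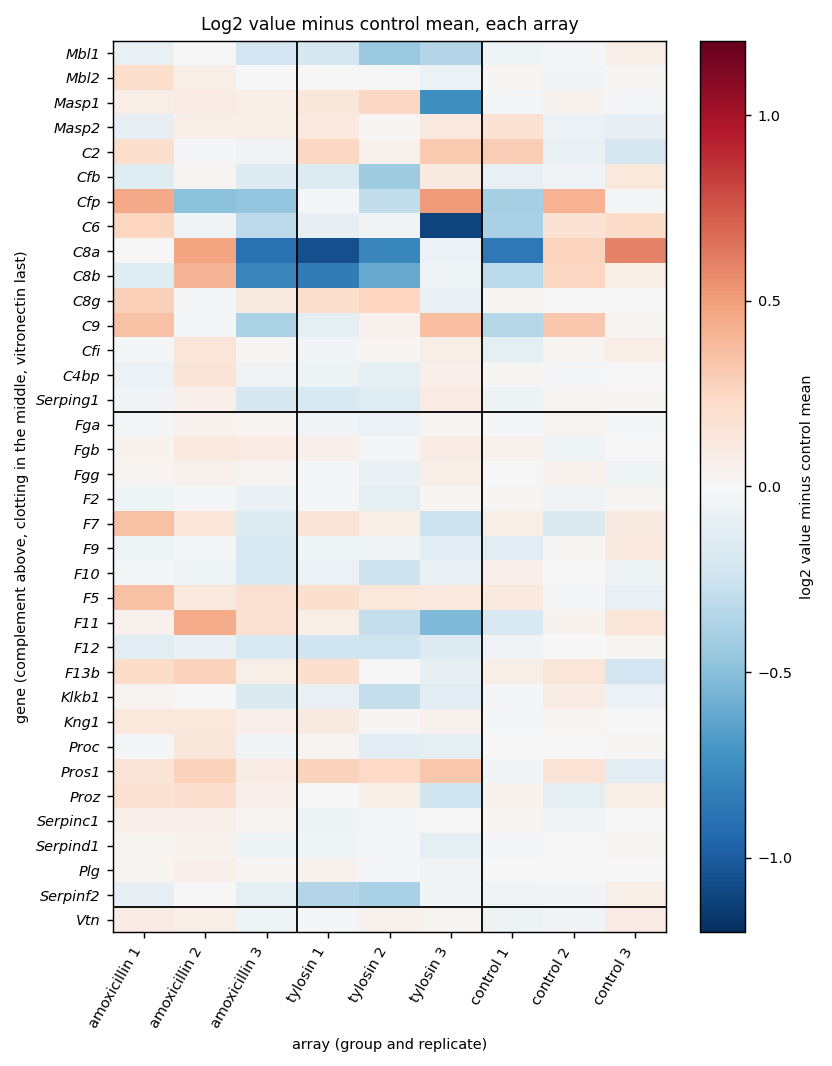
Log2 value minus the control mean for each of the 36 genes (rows) in each of the 9 arrays (columns, amoxicillin, tylosin and control replicates 1 to 3). Red is above and blue below the control mean; the strong colours lie in rows C8a, C8b, C6 and Cfp, each with a range over 1 log2 unit across the arrays, while the fibrinogen rows are nearly white.

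The first question was whether either antibiotic, months after the last course, left a change in these genes. A gene was called, by the study's own thresholds, where its log2 fold change was beyond 0.5 either way and its unadjusted P below 0.01 in 1 limma fit of all 9 arrays. With amoxicillin 0 of the 36 genes were called against control, beside a background of 1.28% of all genes, and with tylosin 0 of 36, beside 1.45%. Between tylosin and amoxicillin 0 of 36 were called as well, beside 0.11%. At an unadjusted P under 0.05, limma passed 1 of 36 with amoxicillin (F5, higher), where 15.5% of all genes passed. With tylosin it passed 4 of 36 (Pros1 higher, and Mbl1, F12 and Serpinf2 lower), where 16.6% of all genes passed. Between tylosin and amoxicillin it passed 2 of 36 (F11 and Mbl1, both lower with tylosin), where 3.13% of all genes passed. No gene of the 18193 had an adjusted p under 0.05 from limma, and the smallest among the 36 was 0.32 with amoxicillin, 0.21 with tylosin and 1 between the antibiotics.

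The intervals say how large a change in the signal of the brightest probe set could have gone unseen. They do not bound other probe sets of the same gene. Over the 9 arrays the brightest probe set of Vtn ranged over 0.161 and its dimmer one over 0.716. For F5 these ranges were 0.445 and 0.244. With amoxicillin the 95% interval of the log2 fold change lay within 0.5 either way for 30 of the 36 genes (70.3% of all genes), and with tylosin for 27 (69.9% of all genes). Between tylosin and amoxicillin it did so for 29 (84.4% of all genes). The clotting genes were the better bounded set, 19 of 20 in each comparison, the exception being F11 each time. Of the 15 complement genes, the interval lay within 0.5 for 10 with amoxicillin, 7 with tylosin and 9 between the antibiotics. The widest complement intervals were those of C8a, C8b, C6 and Cfp, whereas Mbl1 and C2 with tylosin passed 0.5 by little (-0.55 and 0.51).

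**Figure D2:**
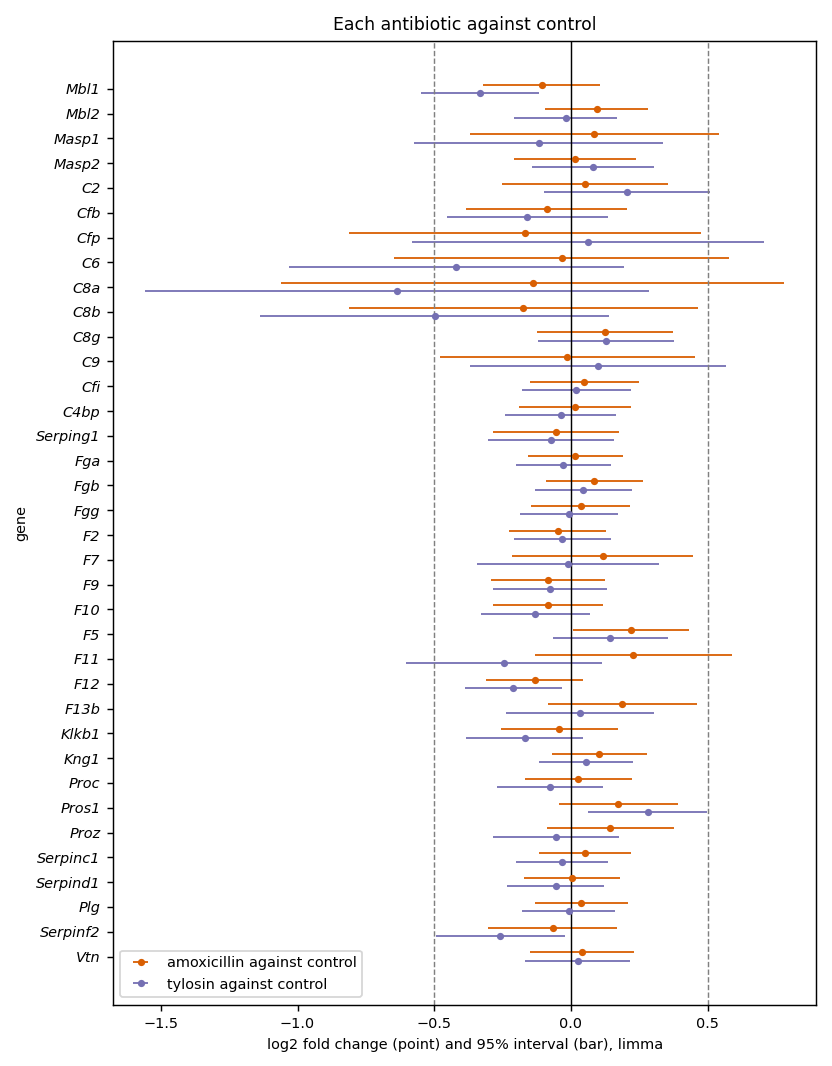
Log2 fold change against control (points) with its 95% interval from limma (bars) for each of the 36 genes, amoxicillin above tylosin in each row; dashed lines mark 0.5 either way. The clotting intervals lie inside the dashed lines except for F11, and the widest bars belong to C8a, at -1.06 to 0.78 for amoxicillin and -1.56 to 0.28 for tylosin.

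The medians of both arms lay near 0. The median log2 fold change of complement genes was -0.01 with amoxicillin and -0.04 with tylosin, and that of clotting genes 0.04 and -0.03, beside -0.03 and -0.01 for all genes. Between tylosin and amoxicillin the medians were -0.05 for complement, -0.07 for clotting and 0.01 for all genes. After median centring of the arrays the signs turned for complement with amoxicillin (0.04) and for complement and clotting with tylosin (0.01 and 0.02). With amoxicillin 22 of the 36 fold changes were above 0 (44.6% of all genes), and with tylosin 12 of 36 (46.7% of all genes). Between tylosin and amoxicillin 8 of 36 were above 0 (53.4% of all genes). In 5 of the 36 genes no amoxicillin array overlapped with any control array (21% of all genes): Masp1, Kng1, Serpinc1 and Plg lay above (9.52% of all genes) and F12 below (11.4%). With tylosin there were also 5 (17.4% of all genes), of which Pros1 lay above (8.21%) and Mbl1, F10, F12 and Klkb1 below (9.15%). Between tylosin and amoxicillin the only one of the 36 (6.13% of all genes) was Serpinc1, which encodes antithrombin and lay below (2.56%), and 0 lay above (3.58%). Both comparisons with control share the same 3 control arrays. These small counts were read after the values were seen.

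The lectin pathway begins with mannose-binding lectins, which bind microbial sugars and carry the proteases MASP1 and MASP2. Mbl1, the mannose-binding lectin A of mice, was at 10.83, 10.92 and 10.69 in amoxicillin arrays, 10.71, 10.48 and 10.57 in tylosin arrays and 10.87, 10.90 and 10.99 in control arrays. All 3 tylosin arrays lay below all 3 control arrays, while the amoxicillin arrays overlapped with both. Its log2 fold change with tylosin was -0.33 (standard error 0.10, 95% interval -0.55 to -0.12, adjusted p = 0.21 from limma), short of the size needed for a call. Mbl1 thus had the smallest p of the 36 genes, and it averaged 10.59 ± 0.12 with tylosin and 10.92 ± 0.06 in control mice (SD, n = 3 each). Against amoxicillin, tylosin stood at -0.23 (adjusted p = 1 from limma). Mbl2, the mannose-binding lectin C, ran from 12.34 to 12.61 over all arrays, and its intervals lay within 0.5 in all 3 comparisons.

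Masp1 was at 9.85, 9.87 and 9.85 in amoxicillin arrays, 9.91, 10.02 and 9.04 in tylosin arrays and 9.76, 9.82 and 9.75 in control arrays. Tylosin replicate 3 was low alone, and the other 2 tylosin arrays lay above every control array. Masp1 had 5 probe sets, the brightest included, and they did not all move together. The second gave 8.93 in tylosin replicate 3, the highest of its 9 values, and a log2 fold change of 0.16 with tylosin, against -0.12 for the brightest. The third was at 8.38, 8.51 and 8.34 in amoxicillin arrays, 8.57, 8.36 and 8.49 in tylosin arrays and 8.31, 8.23 and 7.85 in control arrays. Every antibiotic array of it lay above every control array, at log2 fold changes of 0.28 with amoxicillin and 0.35 with tylosin (adjusted p = 0.33 and 0.26 from limma), both under an unadjusted P of 0.05 and neither called. The direction for Masp1 with tylosin thus depended on the probe set. Masp2 ran from 9.26 to 9.54, and control replicate 1 was the highest.

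C2 and factor B (Cfb) supply the catalytic subunits of the C3 convertases, and properdin (Cfp), made mainly by myeloid cells, stabilises that of the alternative pathway. C2 was at 9.10, 8.87 and 8.85 with amoxicillin, 9.14, 8.95 and 9.20 with tylosin and 9.19, 8.80 and 8.69 in control arrays, so the groups overlapped. Its log2 fold change with tylosin was 0.21 (95% interval -0.10 to 0.51, adjusted p = 0.50 from limma). Cfb ran from 11.04 in tylosin replicate 2 to 11.59 in control replicate 3, with log2 fold changes of -0.09 for amoxicillin and -0.16 for tylosin.

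Cfp was at 8.73, 7.79 and 7.82 in amoxicillin arrays, 8.26, 7.98 and 8.79 in tylosin arrays and 7.88, 8.70 and 8.27 in control arrays. Each group held 1 high array, amoxicillin replicate 1, tylosin replicate 3 and control replicate 2, and the group means differed by no more than 0.23. C9 was highest in the same array of each group. Summed Kupffer cell and macrophage markers were also highest in these arrays, though single markers did not all follow Cfp. In tylosin replicate 3, 7 of the 12 Kupffer cell and macrophage markers had their highest value of the 9 arrays, among them the scavenger receptor Marco (10.95), while 3 had their lowest, Clec4f (7.50), Cd163 (4.75) and Vsig4 (9.40). Summed Kupffer cell and macrophage markers, 12 of 12 measured, were at 13.37, 12.95 and 12.74 in amoxicillin arrays. They were at 13.19, 13.01 and 13.69 in tylosin arrays and 12.76, 13.31 and 13.09 in control arrays. Their part in the Cfp values was not tested. In bulk liver, fewer cells of a type and less RNA per cell cannot be told apart.

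The membrane attack complex is the pore that C5b to C9 build in a target membrane, and its C8 subunit has alpha, beta and gamma chains from separate genes. This was the most variable group: the median SD within groups was 0.431 for its 5 genes and the median range over the 9 arrays 1.25, against 0.502 for all genes. The median log2 fold change of the 5 genes was -0.03 with amoxicillin and -0.42 with tylosin, yet 0 of 5 passed an unadjusted P of 0.05 in any comparison. Among all genes 15.5% passed with amoxicillin, 16.6% with tylosin and 3.13% between the antibiotics.

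C8a was at 10.28, 10.77 and 9.39 in amoxicillin arrays, 9.24, 9.50 and 10.21 in tylosin arrays and 9.43, 10.55 and 10.88 in control arrays. High and low arrays occurred in every group, and the groups overlapped. Its log2 fold change was -0.14 with amoxicillin and -0.64 with tylosin (standard error 0.42, adjusted p = 0.49 from limma). Without control replicate 1 the tylosin value was -1.07, and without control replicate 3 it was -0.34, so its size moved with single arrays. The tylosin arrays of C8a were spread as well, from 9.24 to 10.21.

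C8b was at 8.59, 9.14 and 7.94 in amoxicillin arrays, 7.89, 8.12 and 8.68 in tylosin arrays and 8.41, 8.98 and 8.80 in control arrays. Its log2 fold change was -0.17 with amoxicillin and -0.50 with tylosin (standard error 0.29, 95% interval -1.14 to 0.14, adjusted p = 0.43 from limma). Without tylosin replicate 1 it was -0.33, and without tylosin replicate 3 it was -0.72.

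C8a and C8b, whose promoters are printed above, were high and low in the same arrays. The same 4 arrays, tylosin replicates 1 and 2, amoxicillin replicate 3 and control replicate 1, were the 4 lowest in both genes. C8a was 9.24 to 9.50 in these 4 and 10.21 to 10.88 in the other 5, and C8b was 7.89 to 8.41 and 8.59 to 9.14. C8g, the gamma chain, which lies elsewhere in the genome, was at 12.28 to 12.52 in the 4 arrays and 12.18 to 12.54 in the other 5, so its ranges overlapped. This split was made from the values themselves and holds arrays of every group. It is given as a description without a test.

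The excess of 3-prime over 5-prime signal for Actb on the control probe sets, which widens as RNA degrades, was 1.49, 1.73, 1.57 and 1.29 in tylosin replicates 1 and 2, amoxicillin replicate 3 and control replicate 1. In the other 5 arrays it was 1.57 and 1.39 in amoxicillin replicates 1 and 2, 1.21 in tylosin replicate 3, and 1.39 and 1.40 in control replicates 2 and 3, so the 2 sets overlapped. Its part in the C8a and C8b values was not tested.

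C6, the first protein to join C5b, was at 7.43, 7.13 and 6.86 in amoxicillin arrays, 7.07, 7.13 and 6.06 in tylosin arrays and 6.78, 7.35 and 7.39 in control arrays. With tylosin its log2 fold change was -0.42 (standard error 0.28, 95% interval -1.03 to 0.19, adjusted p = 0.49 from limma). This value rested on tylosin replicate 3, the lowest array, without which it was -0.07. C8g was at 12.54, 12.24 and 12.37 with amoxicillin, 12.47, 12.52 and 12.18 with tylosin and 12.28, 12.25 and 12.25 in control arrays, with log2 fold changes of 0.12 and 0.13. C9, the chain that polymerises into the pore, was at 11.86, 11.49 and 11.12 with amoxicillin, 11.39, 11.55 and 11.87 with tylosin and 11.16, 11.83 and 11.52 in control arrays. Its groups overlapped, with log2 fold changes of -0.01 and 0.10.

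**Figure D3:**
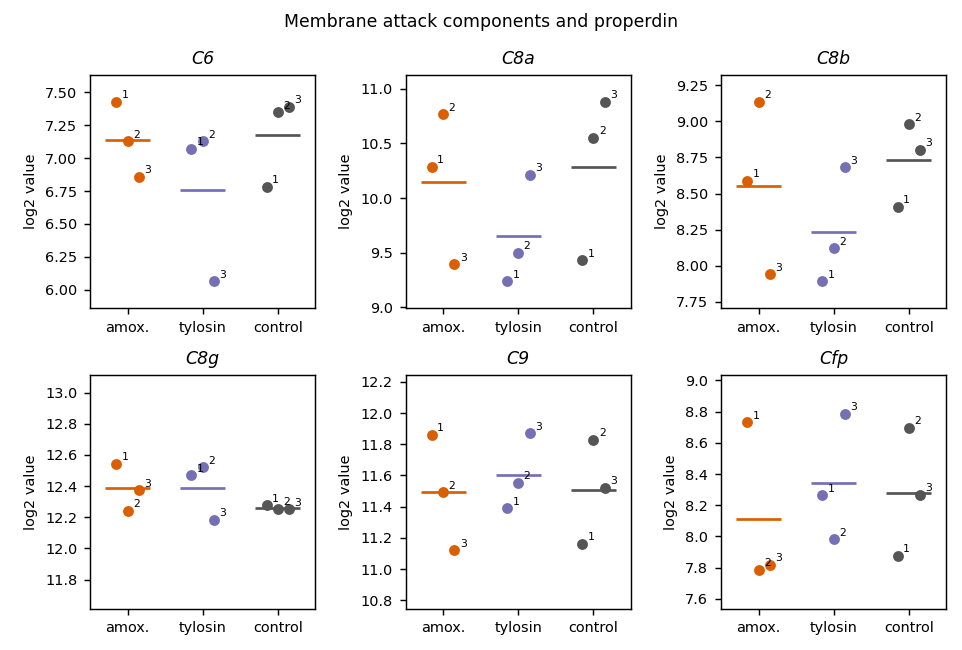
Log2 values of C6, C8a, C8b, C8g, C9 and Cfp in the 3 amoxicillin, 3 tylosin and 3 control arrays; points are arrays numbered by replicate, bars are group means, and each panel has its own axis. In the C8a and C8b panels every group holds at least 1 low and 1 high array.

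The complement inhibitors were steady. Factor I (Cfi), the protease that inactivates C3b and C4b, ran from 12.80 to 13.06, its cofactor C4bp from 11.27 to 11.54, and Serping1, the C1 inhibitor that also blocks kallikrein and factor XII, from 12.52 to 12.82. All 3 had intervals within 0.5 in all 3 comparisons, and the largest of their log2 fold changes in size was -0.07, Serping1 with tylosin.

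Fibrinogen is the substrate of thrombin and rises in the acute phase response. Fga was at 12.92, 12.98 and 12.97 in amoxicillin arrays, 12.90, 12.87 and 12.97 in tylosin arrays and 12.92, 12.97 and 12.92 in control arrays. Fgb was at 13.73, 13.81 and 13.79 with amoxicillin, 13.75, 13.68 and 13.78 with tylosin and 13.74, 13.64 and 13.69 in control arrays. Fgg was at 13.79, 13.81 and 13.79 with amoxicillin, 13.75, 13.67 and 13.83 with tylosin and 13.76, 13.81 and 13.71 in control arrays. The 3 chains overlapped between all groups, with a median range of 0.157 over the 9 arrays. Their log2 fold changes were 0.02, 0.09 and 0.04 with amoxicillin and -0.03, 0.05 and -0.01 with tylosin, and the interval farthest from 0 was that of Fgb with amoxicillin, -0.09 to 0.26.

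Some acute phase genes varied far more in the same arrays. Of 16 measured, 6 had a range over 1 log2 unit, Saa1, Saa2, Saa3, Lcn2, Orm2 and Steap4, and the other 10 did not, among them Hp (0.435) and Orm1 (0.233). The median range of the 16 was 0.685. Saa1, serum amyloid A, was at 7.77, 9.06 and 8.25 with amoxicillin, 8.42, 8.79 and 11.01 with tylosin and 8.22, 8.53 and 11.55 in control arrays. Tylosin replicate 3 and control replicate 3 were the highest arrays for Saa1, and likewise for Saa2, Lcn2 and Orm2, whereas the range of Fga over all 9 arrays was 0.113. Orm1, by contrast, had its lowest value in tylosin replicate 3. Of the 16 genes 0 were called by limma with amoxicillin (1.28% of all genes), with tylosin (1.45%) or between the antibiotics (0.11%). At an unadjusted P under 0.05 there was 1 with amoxicillin (15.5% of all genes), 0 with tylosin (16.6%) and 0 between the antibiotics (3.13%).

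**Figure D4:**
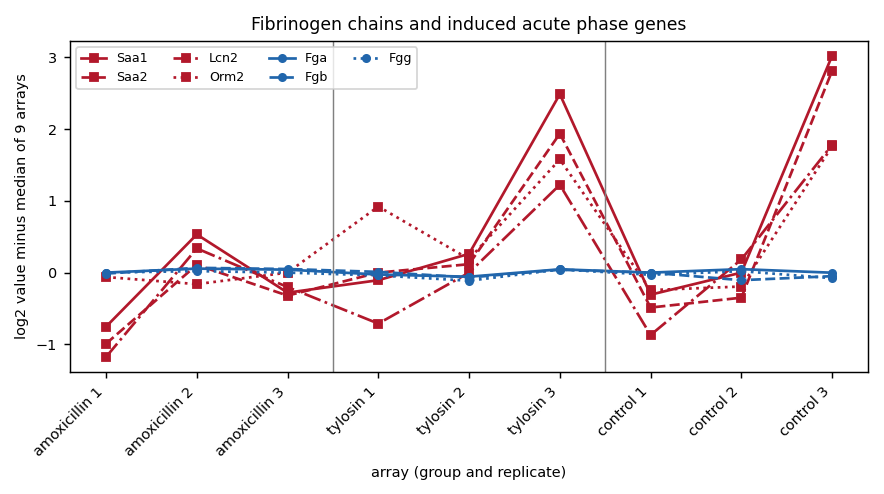
Log2 value minus the median of 9 arrays for Fga, Fgb and Fgg (blue circles) and 4 acute phase genes of wide range, Saa1, Saa2, Lcn2 and Orm2 (red squares), chosen after the values were seen, in the amoxicillin, tylosin and control arrays. The blue lines stay near 0 in all arrays, and the red lines peak in tylosin replicate 3 and control replicate 3.

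Among the vitamin K dependent factors, prothrombin (F2) ran from 13.17 to 13.31, factor VII (F7), the partner of tissue factor, from 10.09 to 10.69, factor IX (F9) from 10.73 to 11.03 and factor X (F10) from 11.39 to 11.70. All 4 had intervals within 0.5 in all 3 comparisons. F10 was at 11.62, 11.58 and 11.46 with amoxicillin, 11.57, 11.39 and 11.56 with tylosin and 11.70, 11.64 and 11.57 in control arrays. The tylosin arrays lay just below the control arrays, with a log2 fold change of -0.13 (adjusted p = 0.52 from limma). The other 2 probe sets of F10 lay on the other side, at 0.09 and 0.02 with tylosin and 0.11 and 0.22 with amoxicillin, so its place below control held for the brightest probe set alone.

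Factor V, the cofactor of factor Xa, gave the smallest p with amoxicillin. F5 was at 11.62, 11.38 and 11.45 in amoxicillin arrays, 11.45, 11.39 and 11.38 in tylosin arrays and 11.38, 11.24 and 11.17 in control arrays. Amoxicillin replicate 2 and control replicate 1 met at the same value. The log2 fold change was 0.22 with amoxicillin (standard error 0.10, 95% interval 0.01 to 0.43, adjusted p = 0.32 from limma) and 0.14 with tylosin. A second probe set of F5 gave 0.16 and 0.13.

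Factor XI, which thrombin and factor XIIa activate, differed most between the antibiotics among clotting genes. F11 was at 8.33, 7.96 and 7.71 in tylosin arrays, against 8.30, 8.70 and 8.43 in amoxicillin arrays, with 8.06, 8.29 and 8.39 in control arrays. Tylosin replicate 1 overlapped with amoxicillin replicate 1, and both antibiotic groups overlapped with control. The log2 fold change of tylosin against amoxicillin was -0.47 (standard error 0.16, 95% interval -0.83 to -0.11, adjusted p = 1 from limma), with 0.23 for amoxicillin and -0.24 for tylosin against control. Without tylosin replicate 1 it was -0.64, which met both thresholds of the call, and without tylosin replicate 3 it was -0.33, which did not.

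Factor XII, plasma kallikrein (Klkb1) and kininogen (Kng1) form the contact system, which starts clotting on charged surfaces and releases bradykinin. F12 was at 11.25, 11.31 and 11.21 in amoxicillin arrays, 11.15, 11.15 and 11.23 in tylosin arrays and 11.35, 11.40 and 11.42 in control arrays. Every antibiotic array lay below every control array, by small amounts, and F12 was the only one of the 36 genes lower than control without overlap with both antibiotics. The log2 fold change was -0.13 with amoxicillin and -0.21 with tylosin (standard error 0.08, 95% interval -0.39 to -0.03, adjusted p = 0.28 from limma). After median centring of the arrays these were -0.08 and -0.16, and tylosin no longer passed an unadjusted P of 0.05.

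Klkb1 was at 11.25, 11.23 and 11.05 with amoxicillin, 11.13, 10.94 and 11.08 with tylosin and 11.20, 11.31 and 11.15 in control arrays. Its tylosin arrays lay below the control arrays, with a log2 fold change of -0.17 (adjusted p = 0.43 from limma). Kng1, at 13.06 to 13.20 over the arrays, stood at 0.10 with amoxicillin and 0.06 with tylosin. F13b, the carrier subunit of factor XIII, which cross-links fibrin, was at 11.18, 11.23 and 11.03 with amoxicillin, 11.16, 10.96 and 10.85 with tylosin and 11.04, 11.10 and 10.73 in control arrays. Its groups overlapped, with log2 fold changes of 0.19 and 0.03.

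Among the anticoagulant proteins, protein S (Pros1) is the cofactor of activated protein C. Pros1 was at 8.27, 8.40 and 8.21 in amoxicillin arrays, 8.40, 8.36 and 8.44 in tylosin arrays and 8.09, 8.28 and 7.99 in control arrays. All 3 tylosin arrays lay above all 3 control arrays, and the amoxicillin arrays overlapped with both. Pros1 stood at a log2 fold change of 0.28 with tylosin (standard error 0.10, 95% interval 0.06 to 0.50, adjusted p = 0.25 from limma), and with amoxicillin it was 0.17. Protein C (Proc) ran from 11.86 to 12.14, antithrombin (Serpinc1) from 13.56 to 13.68, heparin cofactor II (Serpind1) from 11.36 to 11.51 and protein Z (Proz), the cofactor of an inhibitor of factor Xa, from 9.58 to 10.01. All 5 anticoagulant genes had intervals within 0.5 in all 3 comparisons. Beside Pros1 the log2 fold changes of their brightest probe sets against control ran from -0.08 (Proc with tylosin) to 0.14 (Proz with amoxicillin). A second probe set of Proz stood at 0.10 with amoxicillin and -0.15 with tylosin. For tylosin against amoxicillin it stood at -0.25, under an unadjusted P of 0.05 in limma but not called.

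Plasminogen (Plg), the precursor of the protease that dissolves fibrin, ran from 13.56 to 13.67. Its inhibitor alpha-2-antiplasmin (Serpinf2) was at 11.54, 11.64 and 11.53 in amoxicillin arrays, 11.29, 11.25 and 11.60 in tylosin arrays and 11.60, 11.61 and 11.71 in control arrays. Tylosin replicates 1 and 2 lay below every control array, and tylosin replicate 3 lay among them. Serpinf2 stood at a log2 fold change of -0.26 with tylosin (standard error 0.11, 95% interval -0.49 to -0.02, adjusted p = 0.30 from limma).

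**Figure D5:**
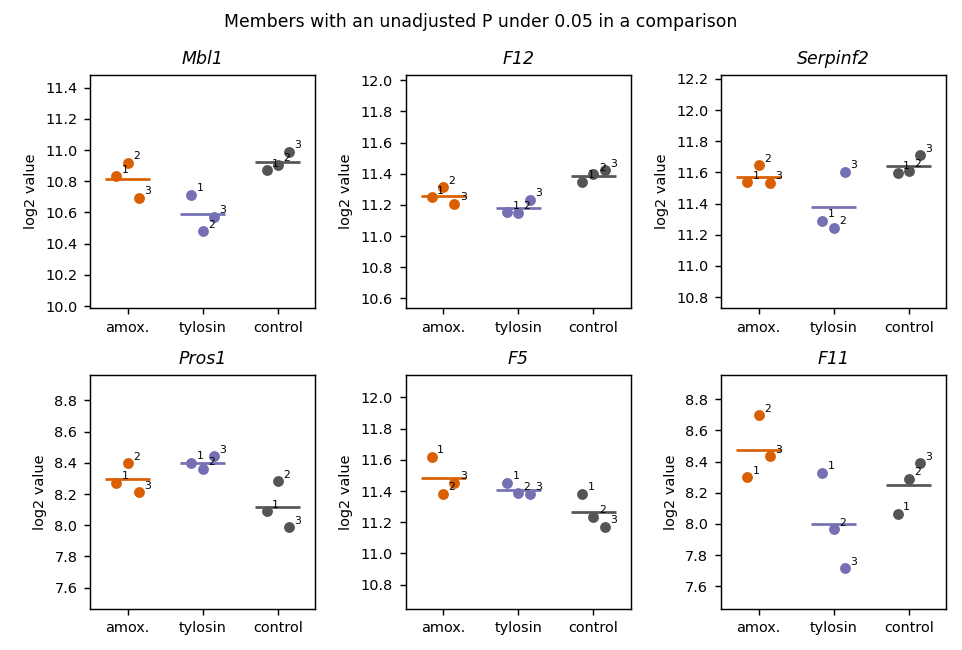
Log2 values of the 6 genes with an unadjusted P under 0.05 in any comparison, in the 3 amoxicillin, 3 tylosin and 3 control arrays; points are arrays numbered by replicate and bars are group means. The tylosin arrays lie below control in Mbl1 and F12 and above control in Pros1 without overlap, and all differences of means are smaller than 0.5.

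Vtn was at 13.34, 13.33 and 13.19 with amoxicillin, 13.23, 13.30 and 13.28 with tylosin and 13.18, 13.21 and 13.34 in control arrays, with log2 fold changes of 0.04 and 0.02. A second, dimmer probe set of Vtn gave 12.64, 12.88 and 12.51 with amoxicillin, 12.30, 12.17 and 12.78 with tylosin and 12.77, 12.84 and 12.88 in control arrays. Its log2 fold change with tylosin was -0.42, so the probe sets of Vtn gave different values, and neither was called. Over all 36 genes there were 50 probe sets, and 9 genes had more than 1. In 5 of these 9, another probe set had the opposite sign to the brightest with amoxicillin, and in 5 with tylosin. Of the 14 other probe sets 0 were called in any comparison, and 1 with amoxicillin, 2 with tylosin and 1 between the antibiotics passed an unadjusted P of 0.05 in limma. The shares of all genes that passed were 15.5%, 16.6% and 3.13%.

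The same pathways were also read in genes beyond the 36. Of 24 further complement genes measured, among them the C1 chains, C5 (Hc) and receptors such as C3ar1, 0 were called by limma in any comparison. The shares of all genes called were 1.28% with amoxicillin, 1.45% with tylosin and 0.11% between the antibiotics. At an unadjusted P under 0.05 there were 0 with amoxicillin (15.5% of all genes), 3 with tylosin (16.6%) and 1 between the antibiotics (3.13%). The largest differences were those of Itgb2, the beta chain of complement receptor 3 on leukocytes, at 0.75 with tylosin, and Cd55, which speeds the decay of C3 convertases, at 0.41 with amoxicillin and 0.61 with tylosin. The value of Itgb2 rested on a single array, and that of Cd55 became smaller without some single arrays. Itgb2 was 8.79 in tylosin replicate 3 and stood at 0.18 without it. Cd55 stood at 0.38 with tylosin without tylosin replicate 3, and with amoxicillin at 0.23 without amoxicillin replicate 1 and 0.22 without control replicate 1. Unlike the 36 genes, some of the 24 were dim. C3ar1, C5ar1, Itgam, Itgax and Cd46 lay under a log2 value of 6 in every array, so their lack of a call says little.

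Of 26 further clotting and fibrinolysis genes, 0 were called with amoxicillin (1.28% of all genes) and 0 between the antibiotics (0.11%). With tylosin 1 was called (1.45%), F2r, the thrombin receptor PAR1. F2r was at 8.69, 8.44 and 8.61 in amoxicillin arrays, 8.61, 8.81 and 8.92 in tylosin arrays and 8.62, 8.05 and 8.07 in control arrays. Control replicate 1 lay within the tylosin values. The log2 fold change was 0.53 with tylosin (standard error 0.15, adjusted p = 0.21 from limma). The call was lost without tylosin replicate 2 (0.52) or 3 (0.46), and without control replicate 2 (0.44) or 3 (0.44). Amoxicillin stood at 0.33 against control and tylosin at 0.20 against amoxicillin, neither called. Procr, the endothelial protein C receptor, stood at 0.60 with tylosin, which rested on tylosin replicate 3 (5.98), and at -0.14 without that array. Vwf, von Willebrand factor, stood at 0.46 with amoxicillin and 0.27 without control replicate 3, and neither was called. At an unadjusted P under 0.05, limma passed 3 of the 26 with amoxicillin, 2 with tylosin and 1 between the antibiotics, beside the same shares of all genes. Many of the 26 were dim. F3, F13a1, Vwf, Procr, Serpina5, Plat, Plau, Plaur, A2m and F2rl3 lay under a log2 value of 6 in every array, so their values say little.

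Of 19 regulators measured, 1 was called with amoxicillin (1.28% of all genes), 0 with tylosin (1.45%) and 0 between the antibiotics (0.11%). The called one was Prox1, a transcription factor of hepatocytes and lymphatic endothelium, higher with amoxicillin. Prox1 was at 9.06, 8.66 and 8.97 in amoxicillin arrays, 9.18, 8.96 and 8.19 in tylosin arrays and 7.95, 8.32 and 8.19 in control arrays, so the amoxicillin arrays did not overlap with control. The log2 fold change was 0.74 (standard error 0.22, adjusted p = 0.24 from limma), and with each amoxicillin or control array left out in turn the call held only without amoxicillin replicate 2 (0.86). It was lost without amoxicillin replicate 1 or 3 (0.66 and 0.71) or control replicate 1, 2 or 3 (0.64, 0.83 and 0.76). Prox1 was not particular to amoxicillin: with tylosin it stood at 0.63 (adjusted p = 0.26 from limma), not called. Tylosin stood at -0.12 against amoxicillin. Hnf4a, a nuclear receptor that many clotting genes depend on, stood at -0.18 with amoxicillin and -0.07 with tylosin, and Socs3, the feedback inhibitor of STAT3, at -0.58 with amoxicillin. Cebpd, induced in the acute phase, stood at 0.67 with tylosin and at 0.28 without control replicate 2, its lowest array (5.98). None of these 3 was called in any comparison. Of the 19 regulators, 2 passed an unadjusted P of 0.05 in limma with amoxicillin, 3 with tylosin and 0 between the antibiotics, beside the same shares of all genes.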

How the data were processed

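Liver RNA of 9 mice was hybridized to Affymetrix Mouse Genome 430 2.0 arrays, 1 array per mouse, 3 per group. The authors deposited log2 expression values after RMA in the affy package; no version is given in the sources used here. These values ran from 2.00 to 14.71, and 0 pairs of arrays were identical. RMA shrinks differences of dim probe sets, and the number of arrays limits the precision. The brightest members, such as Fgg at up to 13.83, lay near the top of this scale, and compression of bright signal was not tested.

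Of 45101 probe sets, 64 manufacturer's controls were left out of the tests. Of all probe sets, 34958 had 1 gene symbol in the platform annotation, 932 several and 9211 none, and only the first were named. Groups were compared with limma 3.58.1 (R 4.3.3) on 45037 probe sets without a filter, in 1 fit of 9 arrays, with Benjamini-Hochberg adjustment over all probe sets and 95% intervals. The procedure was tested on simulated data. No set test was run. Promoter letters were searched in RefSeq sequences on GRCm38.p6. Figures were drawn with matplotlib 3.10.9 (Python 3.11.15).

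The genes and lists were chosen with earlier results of these data known. Values in every array were given for the 4 largest rises and 4 largest falls of each comparison, the fibrinogen chains and any called gene, by a written rule, and other array values were added after they were seen. Of 165 further genes listed, 145 were measured. Alternatives were other thresholds, median centring, quantile normalization, array weights, a filter on dim values, other variance models, a fit restricted to each pair of groups, other ways to combine probe sets, a replicate block and each array left out. The setting without amoxicillin replicate 1 and without tylosin replicate 2, which held gut transcripts, was added after the data were seen.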

Additional observations from a re-analysis of the deposited data

How the results depend on the processing

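With 3 arrays per group, 45037 probe sets and no record of litter, changes of variable genes such as C8a could not be resolved. This held for more than small changes. The interval of the log2 fold change of C8a ran from -1.06 to 0.78 with amoxicillin and -1.56 to 0.28 with tylosin. Single genes were followed in 48 results, those of the largest rises and falls and the fibrinogen chains, not of all 36 genes. Of their 864 values under 21 alternatives, 857 moved by less than the spread between replicates and kept their side of the threshold. Part of this was fixed in advance. Other thresholds, other variance models, the fit of each pair of groups, the filter on dim values and the replicate block cannot change these fold changes. Those settings could alter only the call. Among the 864, 35 changed sign and 1 was called. The called one was F11 between tylosin and amoxicillin without tylosin replicate 1 (-0.64), which made the number of the 36 genes called there 1, and 0 to 1 over arrays left out. In every other alternative and comparison 0 of the 36 genes were called.

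With median centring, the clotting median was 0.091 with amoxicillin (0.04 as reported) and 0.019 with tylosin (-0.03 as reported), and the complement median 0.040 (-0.01 as reported) and 0.013 (-0.04 as reported). Leaving out 1 array at a time gave a complement median of -0.085 to 0.090 with amoxicillin, the highest without amoxicillin replicate 3 (-0.01 as reported). The complement minus the clotting median then ran from -0.12 (without control replicate 1) to 0.035 (without amoxicillin replicate 3) with amoxicillin, and from -0.076 (without control replicate 1) to 0.032 with tylosin, around the reported -0.05 and -0.01. The cause was not tested. Without amoxicillin replicate 1 and tylosin replicate 2 together, Cfp stood at 0.72 for tylosin against amoxicillin (0.23 as reported).

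The replicate numbers were not taken to pair the arrays: 2 of 9 same-number pairs had a correlation of deviations over 0.1 (-0.25 to 0.15), and 3 of 9 arrays correlated best with their own number. With the replicate block 0 of the 36 genes were called in each comparison, as without it.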
